A study of Mus musculus with 21 samples.

Results

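Thyroid glands of C57BL/6J mice that overexpressed thyroid stimulating hormone (TSH) and received methimazole (group TSH-MMI) were compared with those of mice given an empty vector (group Empty), both at 1 week. The 3 TSH-MMI and 3 Empty libraries were taken by their labels, 6 of 21 libraries in the series, and the comparison runs over all genes of their count table. TSH came from a pair of pLIVE plasmids, made for expression in the liver, that carry its subunits TSHB and CGA, and the Empty mice received pLIVE without an insert. Methimazole, also called thiamazole, was given to the TSH-MMI mice alone, so in this comparison the hormone and the drug cannot be told apart. The labels list a treatment named hyperthyroidism induction for every library, Empty included, and do not state the dose or the number of animals behind a library. A group with the TSH plasmids and no drug (TSH, 3 libraries of 1 week) served only to test where the drug made a difference. Since separate animals are not stated, a p-value here speaks only to the spread among these libraries.

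TSH acts on a receptor of the thyroid follicular cell that couples to the stimulatory G protein, raises cyclic AMP and activates protein kinase A, and the gland responds with growth and hormone output. Iodide enters the follicular cell at its base, leaves through anion channels and exchangers into the follicle lumen, and is oxidised there with hydrogen peroxide and attached to thyroglobulin. Methimazole blocks that attachment, so a gland under TSH drive with the drug is stimulated while its hormone synthesis is inhibited. Iodinated thyroglobulin is taken back into the cell and cut by lysosomal cathepsins to release the hormone.

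The 6 libraries held 33962440 to 42393992 counts over 45777 genes, and values are given as normalised CPM, counts scaled by library size, for replicates 1, 2 and 3 of a group in that order. Tshb and Cga, the mouse genes of the TSH subunits, had 0 counts in every library, which allows up to 3 counts per library. The follicular identity genes Pax8, Nkx2-1 and Foxe1 were present in all libraries, with means of 460.2, 228 and 492 CPM in Empty. Markers of neighbouring tissue varied between libraries. As mean log2 CPM, skeletal muscle markers stood at -0.196, 4.90 and 5.58 in Empty and 4.59, 2.14 and 1.69 in TSH-MMI, and the groups overlapped. Immature thymocyte markers stood apart in Empty replicate 3, at 3.88 against -2.78 and -2.74 in the other Empty libraries, and in TSH-MMI replicate 2, at 1.11 against -2.13 and -1.47. Parathyroid markers were higher in each Empty library than in each TSH-MMI library, at 6.77, 6.06 and 6.68 against 5.62, 4.41 and 4.67 (exact two-sided permutation p = 0.1, the smallest that 3 against 3 libraries allow). In bulk tissue fewer cells of a type and less RNA per cell cannot be told apart.

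**Figure D1:**
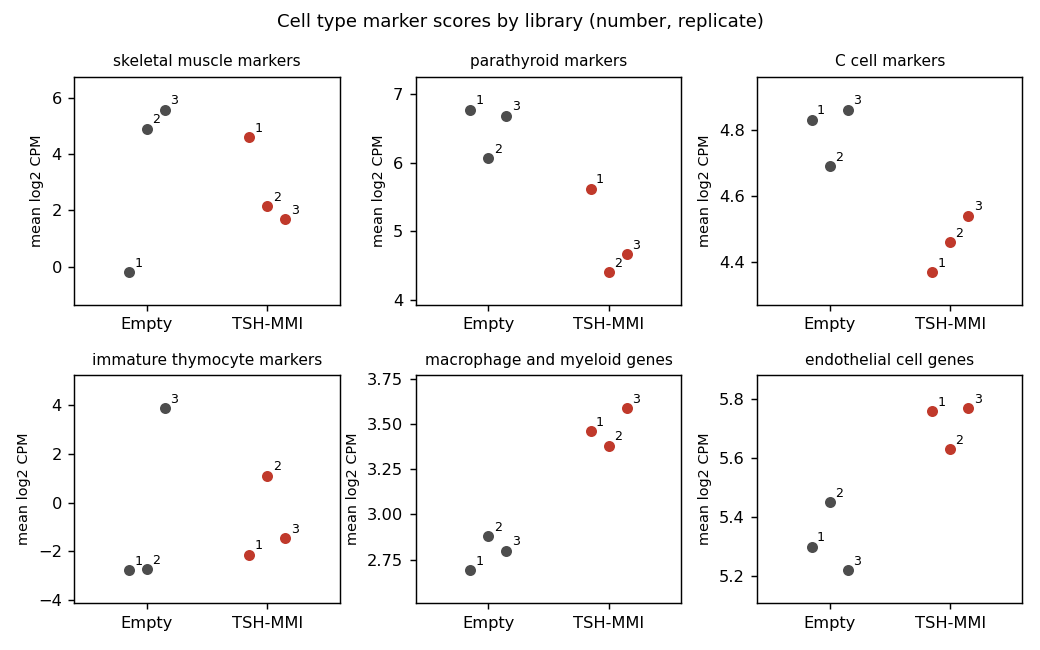
Mean log2 CPM of 6 marker lists in each library, Empty in grey and TSH-MMI in red, with the replicate number beside each point. Muscle and thymocyte scores overlap between the groups, the parathyroid and C cell scores are lower in all 3 TSH-MMI libraries, and the macrophage and endothelial scores are higher in all 3.

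The glands of TSH-MMI mice differed widely from those of Empty mice. Cell division genes, collagens and elastic fibre genes, macrophage genes and lysosomal genes rose, and cytosolic ribosomal protein genes and several genes of fatty acid synthesis fell. Of 16956 genes tested with edgeR's quasi-likelihood test at an adjusted p under 0.05, 2307 were higher and 1351 lower. Thus 21.6% of tested genes were called, 13.6% higher and 7.97% lower, and the counts of every list below are to be read beside these shares. A change of at least 2-fold was fitted for 538 of the genes called higher and 224 of those called lower. The libraries of the groups did not overlap in 3625 of the called genes, while over all tested genes 21.4% had all TSH-MMI libraries above all Empty libraries and 17.5% had them below. The median log2 fold change (log2FC) of all tested genes was -0.00683. Without Empty replicate 1 there were 1632 genes called higher and 726 lower, and without TSH-MMI replicate 3 there were 1448 and 646. With the skeletal muscle score as a covariate they were 2333 and 1418. On log2(FPKM + 1) with limma the split was 3262 higher and 739 lower.

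**Figure D2:**
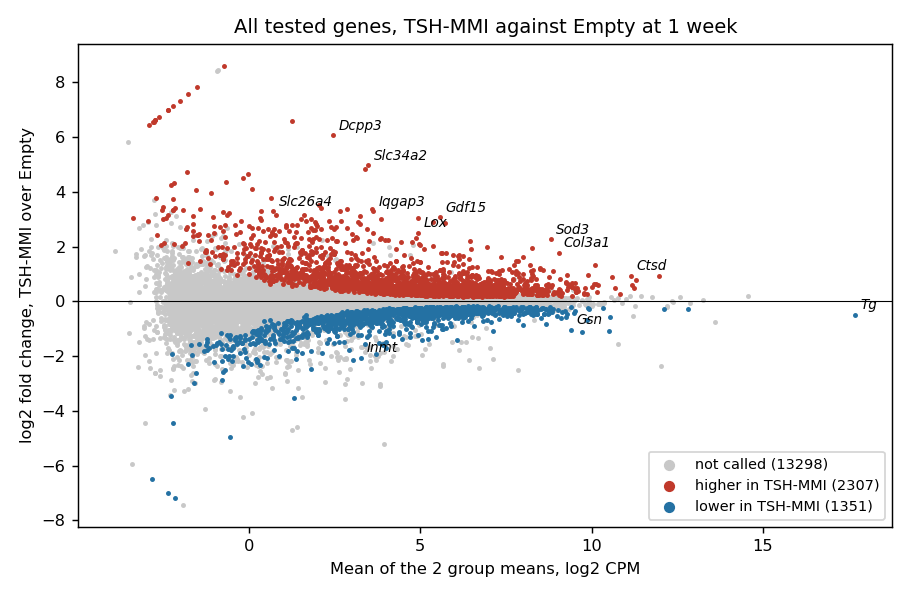
Fitted log2 fold change of TSH-MMI over Empty against the mean level (log2 CPM) of all 16956 tested genes. Red points mark the 2307 genes called higher, blue points the 1351 called lower and grey points the rest, and Tg lies alone at the far right, below 0.

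Thyroglobulin (Tg, gene identifier 21819, chromosome 15, 66670754 to 66850721 on GRCm38), the scaffold on which thyroid hormone is built, was the most abundant transcript and fell. It took 24.5% ± 1.75 of counts in Empty and 18.3% ± 0.921 in TSH-MMI (mean ± SD, n = 3), with each TSH-MMI library below each Empty library (exact two-sided permutation p = 0.1, the smallest possible). The single libraries stood at 23.5%, 26.6% and 23.5% in Empty and at 17.7%, 19.4% and 17.9% in TSH-MMI, and the fitted fall was 1.41-fold (log2FC -0.49, SE 0.10, edgeR adjusted p = 0.0041). The 10 most abundant genes of a library together took 33.1% ± 1.27 in Empty and 26.7% ± 0.792 in TSH-MMI, and 18S ribosomal RNA took 1.55% ± 0.126 and 0.963% ± 0.202. Mitochondrially encoded genes took 7.71% ± 0.478 and 8.15% ± 0.19 (exact two-sided permutation p = 0.3).

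Hormone synthesis genes moved in both directions. Of 18 tested, 8 were higher and 3 lower, with a median log2FC of 0.14. The genes of iodide entry and of several anion routes rose. Slc5a5, the sodium iodide symporter of the basal membrane, stood at 238, 229 and 182 CPM in Empty and 349, 419.8 and 401 CPM in TSH-MMI, a 1.80-fold rise (log2FC 0.85, SE 0.11, edgeR adjusted p = 6.13e-04). Slc26a7, an anion transporter needed for hormone synthesis, stood at 798, 886 and 857 CPM in Empty and 1192, 1202 and 1270.4 CPM in TSH-MMI (log2FC 0.53, SE 0.07, edgeR adjusted p = 4.56e-04). Ano1, a calcium-activated anion channel through which iodide can leave the cell, stood at 26.1, 29.7 and 18.9 CPM in Empty and 41.8, 42.3 and 47.5 CPM in TSH-MMI (log2FC 0.82, SE 0.14, edgeR adjusted p = 0.0029). In each of these genes all TSH-MMI libraries lay above all Empty libraries. Pendrin (Slc26a4, chromosome 12, 31519814 to 31560055), an apical anion exchanger, showed the largest fold of the list while remaining at a low level. It stood at 0.369, 0.212 and 0.317 CPM in Empty and 3.48, 3.22 and 2.19 CPM in TSH-MMI, a 9.73-fold rise (log2FC 3.28, SE 0.28, edgeR adjusted p = 2.87e-05). Slc5a8, described as an apical iodide and monocarboxylate transporter, fell from 99.9, 113 and 86.8 CPM in Empty to 67.7, 78.4 and 74.5 CPM in TSH-MMI (log2FC -0.44, SE 0.10, edgeR adjusted p = 0.011). Per length, in FPKM, the order in TSH-MMI was Slc26a7 at 259 ± 10.1, Slc5a5 at 129 ± 14.8, Slc5a8 at 13.4 ± 1.24, Ano1 at 9.13 ± 0.764 and Slc26a4 at 0.835 ± 0.181 (mean ± SD, n = 3).

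The peroxide-producing oxidases split by family member. Duox1 stood at 2.29, 2.42 and 3.49 CPM in Empty and 9.58, 6.32 and 5.99 CPM in TSH-MMI, a 2.66-fold rise (log2FC 1.41, SE 0.22, edgeR adjusted p = 0.00108). Its maturation factor Duoxa1 stood at 2.40, 2.73 and 3.65 CPM in Empty and 8.26, 5.40 and 6.84 CPM in TSH-MMI (log2FC 1.22, SE 0.20, edgeR adjusted p = 0.0016). Both had all TSH-MMI libraries above all Empty libraries. Duox2, the more abundant oxidase, stood at 50.8, 54.7 and 47.3 CPM in Empty and 55.3, 45.8 and 47.0 CPM in TSH-MMI and did not pass (log2FC -0.05, SE 0.08, edgeR adjusted p = 0.741), and neither did its partner Duoxa2, at 96.6, 68.9 and 79.2 CPM in Empty and 86.9, 90.3 and 87.9 CPM in TSH-MMI (log2FC 0.12, SE 0.12, edgeR adjusted p = 0.543). The groups overlapped in both. Per length Duox1 reached 1.17 ± 0.309 FPKM in TSH-MMI and Duox2 7.87 ± 0.648 FPKM. Iyd, the deiodinase that recovers iodide from iodotyrosines, stood at 986, 975 and 882 CPM in Empty and 975, 1014 and 931 CPM in TSH-MMI (log2FC 0.04, SE 0.08, edgeR adjusted p = 0.766).

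The hormone and amino acid transporters Slc16a10, Slc7a5, Slc7a8 and Slco4c1 did not pass, with log2FC -0.31, -0.57, -0.27 and 0.17 and edgeR adjusted p = 0.0827, 0.0867, 0.252 and 0.704. Kcnq1, a potassium channel of the follicular cell, stood at 10.4, 11.8 and 8.94 CPM in Empty and 14.3, 14.5 and 15.7 CPM in TSH-MMI (log2FC 0.51, SE 0.13, edgeR adjusted p = 0.0168), a call that ended without Empty replicate 1 and without TSH-MMI replicate 3 (edgeR adjusted p = 0.055 and 0.0751) and without both libraries with thymocyte transcripts (0.0764). Its partner subunit Kcne2 was too low to test, with counts in only 2 Empty libraries and 0 TSH-MMI libraries.

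**Figure D3:**
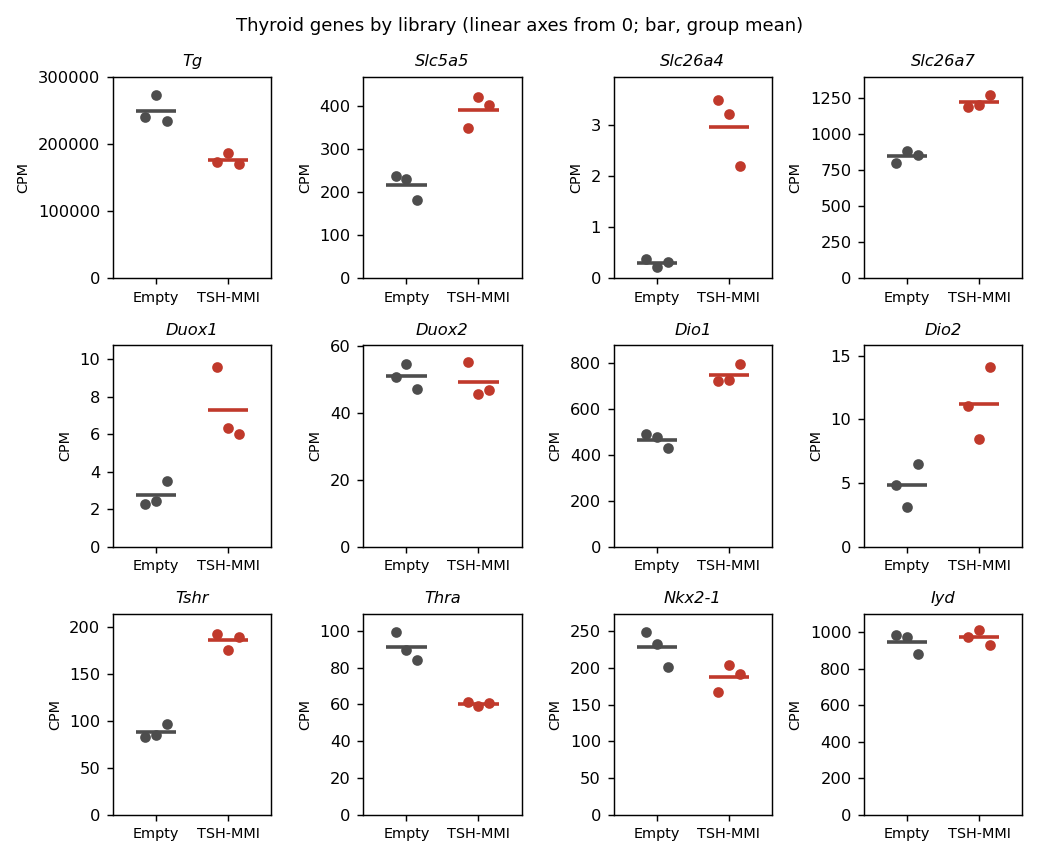
CPM of 12 thyroid genes in each library, Empty in grey and TSH-MMI in red, with a bar at each group mean. Slc5a5, Slc26a4, Slc26a7, Duox1, Dio1, Dio2 and Tshr are higher in all 3 TSH-MMI libraries, Tg and Thra are lower in all 3, and the groups overlap in Duox2, Nkx2-1 and Iyd.

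The deiodinases, which activate or inactivate thyroid hormone by removing iodine, were all higher in TSH-MMI. Of 8 tested genes of deiodinases, hormone receptors and responsive genes, 4 were higher and 2 lower. Genes called lower numbered 1 without Empty replicate 1, 2 or 3 or TSH-MMI replicate 2 or 3. Dio1 stood at 492, 478 and 431 CPM in Empty and 722, 728 and 794 CPM in TSH-MMI, a 1.60-fold rise (log2FC 0.68, SE 0.09, edgeR adjusted p = 4.26e-04). Dio2, which makes the active hormone, stood at 4.85, 3.12 and 6.50 CPM in Empty and 11.1, 8.41 and 14.1 CPM in TSH-MMI, a 2.31-fold rise (log2FC 1.21, SE 0.26, edgeR adjusted p = 0.0114). Dio1 remained far above Dio2 per length, at 429.7 ± 29.7 against 1.69 ± 0.439 FPKM in TSH-MMI. Dio3, the inactivating enzyme, was called higher from a low level, at 0.237, 0.151 and 0.159 CPM in Empty and 0.434, 0.479 and 1.04 CPM in TSH-MMI (log2FC 1.81, SE 0.49, edgeR adjusted p = 0.0213), but not without Empty replicates 2 or 3 or TSH-MMI replicate 3 (edgeR adjusted p = 0.0636, 0.0568 and 0.112), nor without both libraries with thymocyte transcripts (0.0547). No library of one group reached the range of the other in these 3 genes. Thra, the thyroid hormone receptor alpha, fell, at 99.3, 89.8 and 84.0 CPM in Empty and 61.1, 59.0 and 60.8 CPM in TSH-MMI (log2FC -0.59, SE 0.07, edgeR adjusted p = 3.26e-04). Thrb, the beta receptor, stood at 5.22, 6.45 and 5.76 CPM in Empty and 4.61, 5.63 and 4.58 CPM in TSH-MMI and did not pass (log2FC -0.23, SE 0.15, edgeR adjusted p = 0.315). Hr, a corepressor and a known thyroid hormone target, rose, at 20.9, 20.5 and 25.2 CPM in Empty and 37.1, 28.7 and 33.4 CPM in TSH-MMI (log2FC 0.57, SE 0.12, edgeR adjusted p = 0.00575). Thrsp, a lipogenic hormone-responsive gene, was called lower at 121, 125 and 127 CPM in Empty and 93.0, 55.8 and 53.3 CPM in TSH-MMI (log2FC -0.88, SE 0.25, edgeR adjusted p = 0.0424), a call that ended without any 1 of Empty replicates 1, 2 and 3 and TSH-MMI replicates 2 and 3 (edgeR adjusted p from 0.0962 to 0.113). The Thrsp call also ended with no filter on low counts and without both libraries with thymocyte transcripts (edgeR adjusted p up to 0.201). Klf9, another hormone target, did not pass (log2FC -0.12, edgeR adjusted p = 0.418).

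The TSH receptor rose. Tshr (chromosome 12, 91400993 to 91540509) stood at 82.8, 84.8 and 96.5 CPM in Empty and 193, 175 and 189.7 CPM in TSH-MMI, a 2.11-fold rise (log2FC 1.08, SE 0.09, edgeR adjusted p = 2.77e-05). All TSH-MMI libraries lay well above all Empty libraries. Of 16 tested genes of the receptor, its G proteins, adenylyl cyclases, protein kinase A and the thyroid transcription factors, 3 were higher and 1 lower. The share called was 25%, near the 21.6% of all tested genes. With single libraries left out, genes called higher numbered 1 without Empty replicate 1 or 2 or TSH-MMI replicate 3. The number called lower was 4 without Empty replicate 3 and 3 without Empty replicate 2. Gnas, whose main product is the stimulatory G protein subunit and which overlaps other transcripts of its locus, stood at 2049, 1428 and 1869.8 CPM in Empty and 1326, 1114 and 1142 CPM in TSH-MMI (log2FC -0.58, SE 0.13, edgeR adjusted p = 0.0109). It lost the call with limma on log2(FPKM + 1) (adjusted p = 0.0672) and without both libraries with thymocyte transcripts (edgeR adjusted p = 0.0819). Glis3, a transcription factor of the thyroid, and Prkar2b, a regulatory subunit of kinase A, were called higher at log2FC 0.54 and 0.50 (edgeR adjusted p = 0.0401 and 0.0277). Both calls ended without Empty replicates 1 or 2 or TSH-MMI replicate 3, the first also without TSH-MMI replicate 2 and the second without TSH-MMI replicate 1 (edgeR adjusted p from 0.0551 to 0.125). Both also ended with only the compared groups, and that of Glis3 with no filter on low counts. The transcription factors Nkx2-1, Pax8, Foxe1 and Hhex did not pass, at log2FC -0.28, -0.19, -0.26 and -0.04 (edgeR adjusted p = 0.0627, 0.277, 0.154 and 0.877). The follicular epithelial genes Clu and Krt7 rose, at log2FC 0.69 and 0.45 (edgeR adjusted p = 1.78e-04 and 0.0112).

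Phosphodiesterases, which break down cyclic AMP or cyclic GMP, changed in both directions. Of 17 tested, 3 were higher and 3 lower, a share called of 35.3% against 21.6% of all tested genes. Those that rose hydrolyse cyclic AMP. Pde4c stood at 1.79, 2.03 and 1.93 CPM in Empty and 5.84, 4.47 and 4.28 CPM in TSH-MMI, a 2.54-fold rise (log2FC 1.34, SE 0.18, edgeR adjusted p = 5.19e-04). Pde7b stood at 49.8, 55.6 and 54.4 CPM in Empty and 73.1, 81.6 and 87.9 CPM in TSH-MMI (log2FC 0.60, SE 0.08, edgeR adjusted p = 5.42e-04), and Pde8a rose less, by a log2FC of 0.39 (SE 0.07, edgeR adjusted p = 0.00376). Pde1b, which is activated by calcium and calmodulin, fell, at 15.2, 8.48 and 11.3 CPM in Empty and 6.61, 6.34 and 6.96 CPM in TSH-MMI (log2FC -0.82, SE 0.18, edgeR adjusted p = 0.00727). Pde1a, of the same kind, was called lower (log2FC -0.70, SE 0.18, edgeR adjusted p = 0.0181), but not without Empty replicate 1 or TSH-MMI replicate 3 (edgeR adjusted p = 0.0566 and 0.0705). Pde11a was called lower (log2FC -1.99, SE 0.56, edgeR adjusted p = 0.0262), a call that ended in 5 of the 6 fits without 1 library (edgeR adjusted p from 0.0528 to 0.106), with limma (adjusted p = 0.0617) and without both libraries with thymocyte transcripts (edgeR adjusted p = 0.124). Leaving out 1 library gave a number called lower of 1 without Empty replicate 1 or TSH-MMI replicate 3.

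Some immediate early genes, which respond within minutes to cyclic AMP and growth signals, rose. Of 21 tested immediate early genes and CREB targets, 6 were higher and 1 lower (median log2FC 0.19). The share called was 33.3%, against 21.6% of all tested genes. Genes called higher numbered 4 without TSH-MMI replicate 1. The gene called lower, Fosb, stood at 1.5, 3.48 and 0.635 CPM in Empty and 0.748, 0.205 and 0.348 CPM in TSH-MMI with overlapping groups, and lost the call without Empty replicate 1 or 2 or TSH-MMI replicate 2 or 3 (edgeR adjusted p = 0.071, 0.123, 0.109 and 0.139). Crem, a cyclic AMP responsive modulator, stood at 12.1, 12.4 and 14.9 CPM in Empty and 21.3, 20.2 and 22.6 CPM in TSH-MMI (log2FC 0.70, SE 0.11, edgeR adjusted p = 0.00151). Nr4a2, an orphan nuclear receptor and target of the cyclic AMP binding protein CREB, stood at 18, 19.4 and 11.1 CPM in Empty and 32.8, 27.1 and 30.3 CPM in TSH-MMI (log2FC 0.89, SE 0.19, edgeR adjusted p = 0.0115). Atf3, a stress and cyclic AMP responsive factor, stood at 1.40, 1.94 and 2.01 CPM in Empty and 3.84, 2.87 and 3.46 CPM in TSH-MMI (log2FC 0.93, SE 0.19, edgeR adjusted p = 0.00502). In these genes no TSH-MMI library overlapped an Empty library. Ier3, a growth and survival gene, rose by a log2FC of 1.05 (edgeR adjusted p = 0.00276). Fos stood at 4.58, 5.27 and 4.26 CPM in Empty and 9.80, 6.75 and 6.59 CPM in TSH-MMI (log2FC 0.71, SE 0.17, edgeR adjusted p = 0.0136), and its call ended without Empty replicate 1 and without TSH-MMI replicate 1 (edgeR adjusted p = 0.0538 and 0.0562).

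CREB binds the letters TGACG, the core letters of the cyclic AMP response element. The promoters of the called genes Atf3 and Nr4a2 are shown as examples that hold these letters. The windows run from 250 bases before to 50 after the annotated start and come from RefSeq (GRCm38.p6), with matches to TGACG on either strand in capitals and the gene's own strand printed. They are Atf3 at chr1:191183284-191183583 (minus strand) and Nr4a2 at chr2:57123954-57124253 (minus strand).
Atf3: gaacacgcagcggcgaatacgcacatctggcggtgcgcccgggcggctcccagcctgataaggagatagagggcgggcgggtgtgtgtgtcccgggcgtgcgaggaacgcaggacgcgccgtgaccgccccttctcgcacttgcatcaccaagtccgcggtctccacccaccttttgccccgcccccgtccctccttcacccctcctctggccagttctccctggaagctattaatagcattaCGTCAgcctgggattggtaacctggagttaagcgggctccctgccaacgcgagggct
Nr4a2: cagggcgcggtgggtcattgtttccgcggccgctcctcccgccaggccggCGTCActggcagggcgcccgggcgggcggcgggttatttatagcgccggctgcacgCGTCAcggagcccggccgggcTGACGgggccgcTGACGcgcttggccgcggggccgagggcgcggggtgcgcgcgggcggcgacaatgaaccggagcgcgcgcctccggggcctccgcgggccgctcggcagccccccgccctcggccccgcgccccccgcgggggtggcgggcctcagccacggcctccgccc
Of 15 tested members with a window 10 held TGACG on either strand (66.7%). The share was 29.6% among the 12667 tested genes with a window and 29.0% among the windows of genes called higher. TGACG was also in 12 of 25 ribosomal protein windows (48.0%) and 12 of 28 DNA replication windows (42.9%). Mitosis windows held it in 10 of 35 (28.6%) and collagen windows in 2 of 27 (7.41%). The full response element was in 1 of the 15 windows (6.67%), against 3.01% of tested genes with a window. The windows of Atf3 and Nr4a2 did not hold it. Among windows not printed, that of Ier3 held no match to TGACG and that of Fos held 2. A match is a description of letters and not a binding site.

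Genes of mitosis and cytokinesis rose. Of 40 tested members, 38 were higher and 0 lower, with a median log2FC of 2.29, against 13.6% called higher and a median of -0.00683 over all tested genes. Iqgap3 (chromosome 3, 88082002 to 88121048), a scaffold of dividing cells, stood at 2.48, 1.73 and 2.64 CPM in Empty and 24.6, 19.0 and 23.9 CPM in TSH-MMI, a 9.81-fold rise (log2FC 3.29, SE 0.18, edgeR adjusted p = 3.12e-06). Kif20a, a kinesin motor of the central spindle, stood at 1.45, 1.70 and 2.62 CPM in Empty and 15.3, 15.7 and 19.5 CPM in TSH-MMI, an 8.74-fold rise (log2FC 3.13, SE 0.20, edgeR adjusted p = 5.83e-06). The hyaluronan receptor and spindle protein Hmmr stood at 0.764, 1.03 and 1.72 CPM in Empty and 11.7, 10.8 and 12.0 CPM in TSH-MMI, a 9.78-fold rise (log2FC 3.29, SE 0.23, edgeR adjusted p = 9.42e-06). All 3 genes were low in Empty, and the groups lay far apart. Anln, which organises the cleavage furrow, stood at 3.03, 2.24 and 3.62 CPM in Empty and 19.0, 15.7 and 21.5 CPM in TSH-MMI (log2FC 2.66, SE 0.19, edgeR adjusted p = 1.54e-05). Ckap2l, a spindle pole protein, stood at 2.08, 1.33 and 2.83 CPM in Empty and 9.37, 9.85 and 9.68 CPM in TSH-MMI (log2FC 2.20, SE 0.20, edgeR adjusted p = 5.41e-05). Prc1, which bundles microtubules of the midzone, stood at 2.61, 2.24 and 4.68 CPM in Empty and 25.6, 24.5 and 27.3 CPM in TSH-MMI (log2FC 3.01, SE 0.26, edgeR adjusted p = 1.74e-04). The proliferation marker Mki67 stood at 7.82, 6.21 and 21.3 CPM in Empty and 51.2, 50 and 51.4 CPM in TSH-MMI (log2FC 2.11, SE 0.45, edgeR adjusted p = 0.0194), and was higher in Empty replicate 3 than in the other Empty libraries. Its call ended without Empty replicate 1 or TSH-MMI replicate 1 or 3 (edgeR adjusted p = 0.0612, 0.0508 and 0.0585) and with only the compared groups (0.0649). Empty replicate 3, which also held thymocyte transcripts, had a mean log2 CPM of 1.75 over the list, against 0.444 and 0.355 in the other Empty libraries and 3.25, 3.23 and 3.38 in TSH-MMI. Without Empty replicate 3 39 members were higher, and without both libraries with thymocyte transcripts 39. Over the other settings the number higher was 28 without TSH-MMI replicate 3, 29 with only the compared groups, 30 without Empty replicate 1 or TSH-MMI replicate 1, 31 without TSH-MMI replicate 2, and 34 to 40 in the rest. The median log2FC was lowest with limma on log2(FPKM + 1), at 1.38. Without Empty replicate 3 and without both of those libraries it was 3.05 and 3.10.

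Promoters of late cell cycle genes often carry a cell cycle homology region with the letters TTTGAA and CCAAT boxes. Windows of 4 of the 5 mitosis genes with the smallest p are printed to show how they hold these letters, with TTTGAA and CCAAT on either strand in capitals. They are Iqgap3 at chr3:88081801-88082100 (plus strand), Hmmr at chr11:40733388-40733687 (minus strand), Anln at chr9:22389157-22389456 (minus strand) and Ckap2l at chr2:129297163-129297462 (minus strand).
Iqgap3: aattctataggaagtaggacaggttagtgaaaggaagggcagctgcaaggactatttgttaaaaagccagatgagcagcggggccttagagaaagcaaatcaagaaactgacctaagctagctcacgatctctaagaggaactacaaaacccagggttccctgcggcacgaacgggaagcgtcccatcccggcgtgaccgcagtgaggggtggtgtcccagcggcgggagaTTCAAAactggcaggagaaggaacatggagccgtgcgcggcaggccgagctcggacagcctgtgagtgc
Hmmr: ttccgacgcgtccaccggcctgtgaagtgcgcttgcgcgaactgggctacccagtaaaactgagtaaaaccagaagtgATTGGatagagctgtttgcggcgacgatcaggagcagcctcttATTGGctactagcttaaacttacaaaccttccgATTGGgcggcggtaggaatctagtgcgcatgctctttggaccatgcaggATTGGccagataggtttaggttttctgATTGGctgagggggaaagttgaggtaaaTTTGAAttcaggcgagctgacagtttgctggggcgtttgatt
Anln: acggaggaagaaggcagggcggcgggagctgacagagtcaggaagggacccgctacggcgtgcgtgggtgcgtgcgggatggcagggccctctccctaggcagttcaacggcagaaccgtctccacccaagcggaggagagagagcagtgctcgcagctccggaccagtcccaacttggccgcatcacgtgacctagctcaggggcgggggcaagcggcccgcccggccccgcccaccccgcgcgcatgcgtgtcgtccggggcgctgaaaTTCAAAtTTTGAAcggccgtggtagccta
Ckap2l: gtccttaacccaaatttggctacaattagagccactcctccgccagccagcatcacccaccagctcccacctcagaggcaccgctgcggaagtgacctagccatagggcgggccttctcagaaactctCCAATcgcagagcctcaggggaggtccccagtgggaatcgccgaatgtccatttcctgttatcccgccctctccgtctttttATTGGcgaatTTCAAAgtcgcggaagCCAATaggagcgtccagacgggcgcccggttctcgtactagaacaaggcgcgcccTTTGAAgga
Iqgap3 and Anln held TTTGAA without CCAAT, while Hmmr held 1 TTTGAA and 5 CCAAT and Ckap2l 2 TTTGAA and 3 CCAAT. Of 35 mitosis members with a window 26 held TTTGAA (74.3%), 24 held CCAAT (68.6%) and 20 held both (57.1%). Among the 12667 tested genes with a window the shares were 12.5%, 38.4% and 5.28%, and among the 1771 called higher 14.1%, 37.4% and 6.72%. In the DNA replication list TTTGAA was in 4 of 28 windows (14.3%) and CCAAT in 16 (57.1%).

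Fewer genes of DNA replication than of mitosis were called. Of 34 tested, 4 were higher (11.8%) and 0 lower, with a median log2FC of 0.26. That share is near the 13.6% called higher over all tested genes. Genes called higher numbered 14 without Empty replicate 3, 2 without Empty replicate 2 or TSH-MMI replicate 1 or 2 and 1 without Empty replicate 1 or TSH-MMI replicate 3. Tk1, thymidine kinase, stood at 3.77, 3.73 and 5.37 CPM in Empty and 8.38, 7.59 and 8.76 CPM in TSH-MMI (log2FC 0.94, SE 0.19, edgeR adjusted p = 0.00466). Pcna, the replication clamp, stood at 29.9, 29.7 and 35.4 CPM in Empty and 40.5, 38.7 and 41.0 CPM in TSH-MMI (log2FC 0.34, SE 0.08, edgeR adjusted p = 0.0116), a call that ended without either of Empty replicate 1 and TSH-MMI replicate 3 (edgeR adjusted p = 0.0521 and 0.0504). The mean log2 CPM of the list was 2.63, 2.47 and 3.24 in Empty and 3.23, 3.15 and 3.21 in TSH-MMI, so Empty replicate 3, which held thymocyte transcripts, lay at the level of TSH-MMI.

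Some cyclins and kinases of G1, the phase before DNA synthesis, rose. Of 22 tested, 9 were higher and 2 lower (median log2FC 0.41). With single libraries left out, genes called higher numbered 5 without Empty replicate 1. The number called lower was 1 without Empty replicate 1 or TSH-MMI replicate 1 or 3. Ccnd1, cyclin D1, stood at 103, 97.1 and 113 CPM in Empty and 265, 196 and 230.3 CPM in TSH-MMI, a 2.21-fold rise (log2FC 1.14, SE 0.14, edgeR adjusted p = 4.71e-04). Ccne2, a cyclin of the G1 to S transition, stood at 0.500, 0.727 and 0.476 CPM in Empty and 1.98, 2.21 and 2.14 CPM in TSH-MMI (log2FC 1.89, SE 0.24, edgeR adjusted p = 3.31e-04). The transcription factor E2f1 rose by a log2FC of 1.05 (edgeR adjusted p = 0.00772). Inhibitors of cyclin-dependent kinases went both ways. Cdkn1a (p21) stood at 48.1, 41.4 and 49.5 CPM in Empty and 114, 75.4 and 94.2 CPM in TSH-MMI (log2FC 1.03, SE 0.16, edgeR adjusted p = 0.00234), and Cdkn1c (p57) fell, at 9.30, 8.42 and 8.70 CPM in Empty and 5.60, 5.11 and 4.80 CPM in TSH-MMI (log2FC -0.77, SE 0.15, edgeR adjusted p = 0.00486).

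Targets of the tumour suppressor p53 were higher in part. Of 26 tested genes of this list, which includes Gdf15, 9 were higher and 2 lower (0 to 2 lower with single libraries left out), with a median log2FC of 0.26. Gdf15, a secreted stress hormone that acts on the brainstem to reduce food intake, stood at 9.43, 12.0 and 9.02 CPM in Empty and 123, 58.7 and 73.6 CPM in TSH-MMI, an 8.40-fold rise (log2FC 3.07, SE 0.39, edgeR adjusted p = 0.00281). The apoptosis genes Pmaip1 (Noxa) and Bax rose by log2FC 1.49 and 0.64 (edgeR adjusted p = 6.03e-04 and 0.00216). Psrc1, a spindle protein as well as a p53 target, stood at 0.448, 0.454 and 0.714 CPM in Empty and 3.69, 3.85 and 3.56 CPM in TSH-MMI (log2FC 2.77, SE 0.22, edgeR adjusted p = 1.82e-05). In each of these 4 genes the groups did not overlap.

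Growth factor lists held genes called higher and genes called lower. Of 23 tested genes of the epidermal growth factor (EGF) receptor system, 5 were higher and 3 lower. The share called was 34.8%, against 21.6% of all tested genes. Leaving out 1 library gave a number called higher of 3 without TSH-MMI replicate 3. The ligands Tgfa and Btc rose while Egf fell. Tgfa stood at 27.0, 27.4 and 27.4 CPM in Empty and 50.5, 40.2 and 45.4 CPM in TSH-MMI (log2FC 0.73, SE 0.08, edgeR adjusted p = 1.61e-04). Egf stood at 5.51, 5.57 and 4.97 CPM in Empty and 2.58, 2.44 and 2.39 CPM in TSH-MMI (log2FC -1.11, SE 0.20, edgeR adjusted p = 0.00259). Erbb4, a receptor of the family, fell 2.98-fold, from 14.9, 20.1 and 11.6 CPM in Empty to 4.22, 6.29 and 5.12 CPM in TSH-MMI (log2FC -1.57, SE 0.20, edgeR adjusted p = 4.77e-04). Dusp6, which shuts off ERK kinases downstream of such receptors, rose by a log2FC of 0.48 (edgeR adjusted p = 0.0016). In the insulin-like growth factor (IGF) list, 7 of 18 tested genes were higher and 2 lower. Genes called higher numbered 4 without TSH-MMI replicate 1 or 3. With single libraries left out, genes called lower numbered 4 without Empty replicate 3 and 1 without Empty replicate 1 or TSH-MMI replicate 2 or 3. The binding protein Igfbp7 stood at 155, 169 and 126 CPM in Empty and 305, 274 and 354 CPM in TSH-MMI, a 2.07-fold rise (log2FC 1.05, SE 0.13, edgeR adjusted p = 3.57e-04), while Igfbp5 fell, at 300.1, 326 and 324 CPM in Empty and 241, 257 and 220.3 CPM in TSH-MMI (log2FC -0.40, SE 0.09, edgeR adjusted p = 0.00717).

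**Figure D4:**
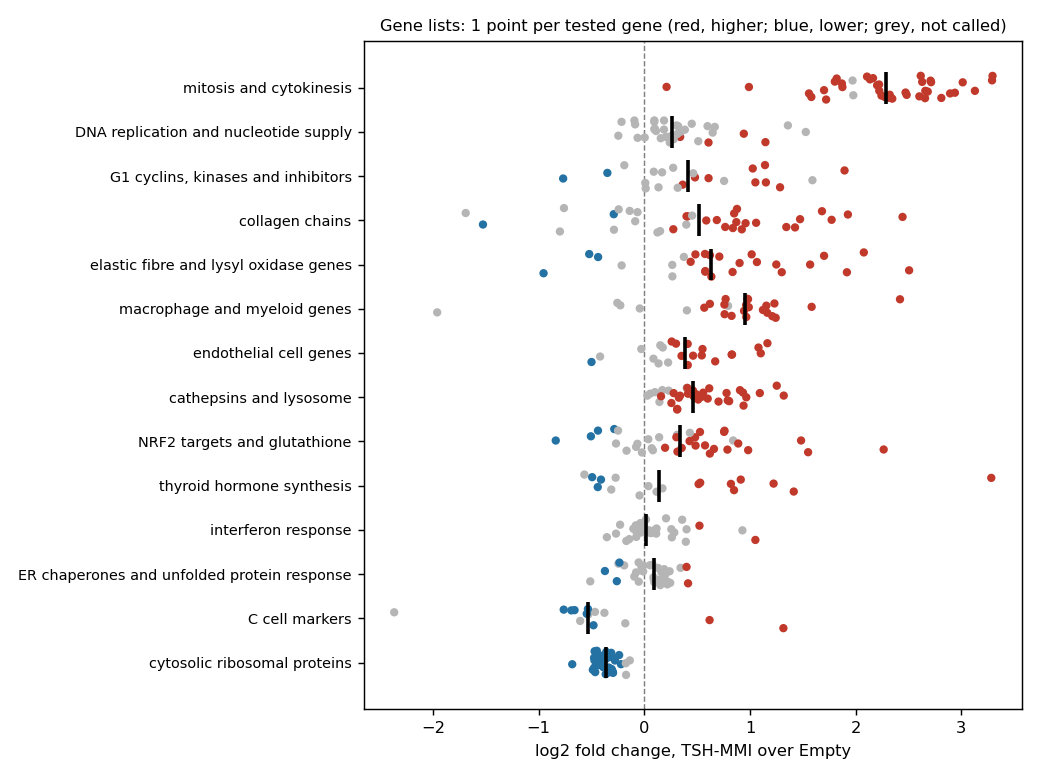
Fitted log2 fold change of every tested member of 14 gene lists, red for genes called higher, blue for genes called lower and grey for the rest. A black bar marks the median of a list and the dashed line the median of all tested genes. Mitosis genes lie far above the dashed line around a median of 2.29, replication genes close to it, and ribosomal protein genes in a narrow band below 0.

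Many collagen genes rose. Of 34 tested collagen chains, 20 were higher and 2 lower (0 to 3 lower with single libraries left out), with a median log2FC of 0.52. The fibrillar chains led. Col3a1 (chromosome 1, 45311538 to 45349706) stood at 219.5, 271 and 223 CPM in Empty and 754, 902 and 781 CPM in TSH-MMI, a 3.41-fold rise (log2FC 1.77, SE 0.10, edgeR adjusted p = 2.64e-06). Col1a1 stood at 116, 129 and 110.4 CPM in Empty and 351, 356 and 281 CPM in TSH-MMI, a 2.78-fold rise (log2FC 1.47, SE 0.10, edgeR adjusted p = 8.64e-06). Col5a2, a chain that joins type I fibrils, stood at 26.1, 34.6 and 27.4 CPM in Empty and 88.5, 96.9 and 96.9 CPM in TSH-MMI, a 3.21-fold rise (log2FC 1.68, SE 0.09, edgeR adjusted p = 2.64e-06). In each the lowest TSH-MMI library lay above the highest Empty library. Col1a2, Col5a1 and Col8a1 rose by log2FC 1.34, 1.43 and 1.93 (edgeR adjusted p = 5.83e-06, 5.83e-06 and 6.72e-06). The basement membrane chain Col4a1, the most abundant of these per length at 184 ± 19.0 FPKM in TSH-MMI, stood at 677, 660.0 and 599.6 CPM in Empty and 1419, 1112 and 1231 CPM in TSH-MMI (log2FC 0.96, SE 0.10, edgeR adjusted p = 7.79e-05). Col3a1 reached 142 ± 15.8 FPKM and Col1a1 53.8 ± 6.46 FPKM.

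Elastic fibre, microfibril and lysyl oxidase genes, which build and cross-link the fibres of the stroma, included Eln and Lox, whose adjusted p-values were the smallest of the comparison after that of the protease inhibitor Cst6. Of 26 tested, 19 were higher and 3 lower (0 to 3 lower with single libraries left out), with a median log2FC of 0.63. Lox, which cross-links collagen and elastin, stood at 9.01, 8.75 and 9.68 CPM in Empty and 51.1, 44.8 and 60.0 CPM in TSH-MMI, a 5.68-fold rise (log2FC 2.51, SE 0.11, edgeR adjusted p = 4.55e-07). Eln, elastin itself, stood at 39.7, 33.4 and 39.8 CPM in Empty and 145, 133 and 148 CPM in TSH-MMI, a 3.78-fold rise (log2FC 1.92, SE 0.09, edgeR adjusted p = 4.55e-07). Fbn1, the fibrillin of the microfibril, stood at 33.6, 35.9 and 29.4 CPM in Empty and 114, 108 and 99.5 CPM in TSH-MMI, a 3.25-fold rise (log2FC 1.70, SE 0.10, edgeR adjusted p = 2.64e-06). Replicates were tight in these genes and the groups far apart. The microfibril gene Mfap5 and the lysyl oxidase relatives Loxl1 and Loxl2 rose by log2FC 1.57, 0.83 and 1.25 (edgeR adjusted p = 5.83e-06, 6.72e-06 and 7.98e-06). The members called lower, Fbln1, Tnc and Dcn, lost that call in at least 4 of the 6 fits that left out 1 library.

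Of 23 tested matrix proteases and inhibitors 10 were higher and 3 lower (1 to 3 lower with single libraries left out). Adamts2, which trims procollagen, stood at 16.6, 20.4 and 15.3 CPM in Empty and 46.7, 46.7 and 46.7 CPM in TSH-MMI (log2FC 1.42, SE 0.10, edgeR adjusted p = 1.06e-05). Adam12, a metalloprotease of activated stroma, stood at 2.48, 3.51 and 3.65 CPM in Empty and 12.3, 9.90 and 11.7 CPM in TSH-MMI (log2FC 1.81, SE 0.17, edgeR adjusted p = 4.51e-05). The inhibitor Timp1 stood at 2.66, 1.88 and 3.09 CPM in Empty and 7.48, 5.52 and 7.36 CPM in TSH-MMI (log2FC 1.41, SE 0.22, edgeR adjusted p = 0.00126). Fibroblast markers gave 5 higher and 0 lower of 12 tested (0 to 1 lower with single libraries left out). Cthrc1, a gene of activated fibroblasts, stood at 0.342, 0.424 and 0.264 CPM in Empty and 1.33, 2.55 and 1.64 CPM in TSH-MMI (log2FC 2.42, SE 0.40, edgeR adjusted p = 0.00163), and Pdgfrb, a receptor of fibroblasts and pericytes, at 40.8, 44.7 and 31.7 CPM in Empty and 77.3, 64.5 and 75.6 CPM in TSH-MMI (log2FC 0.89, SE 0.11, edgeR adjusted p = 4.81e-04).

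In the transforming growth factor beta (TGF-beta) list 13 of 26 tested genes were higher and 2 lower (median log2FC 0.35). The number called higher was 8 without TSH-MMI replicate 1 or 3. The ligand Tgfb1 stood at 47.0, 44.0 and 48.8 CPM in Empty and 73.4, 63.8 and 63.4 CPM in TSH-MMI (log2FC 0.52, SE 0.09, edgeR adjusted p = 0.00183). Its signalling receptor Tgfbr1 rose by a log2FC of 0.36 (edgeR adjusted p = 0.00553), while the coreceptor Tgfbr3 fell, at 79.2, 89.4 and 83.7 CPM in Empty and 56.2, 65.9 and 59.5 CPM in TSH-MMI (log2FC -0.47, SE 0.08, edgeR adjusted p = 0.0018). The matrix targets Postn and Tgfbi rose. Postn, periostin, stood at 50.7, 43.4 and 56.4 CPM in Empty and 102, 102 and 103 CPM in TSH-MMI, a 2.04-fold rise (log2FC 1.03, SE 0.08, edgeR adjusted p = 2.46e-05). Tgfbi stood at 45.9, 48.4 and 36.4 CPM in Empty and 73.6, 71.1 and 73.9 CPM in TSH-MMI (log2FC 0.74, SE 0.12, edgeR adjusted p = 0.00163). Bmp1, which cleaves procollagen and activates lysyl oxidase, rose by a log2FC of 0.49 (edgeR adjusted p = 0.001).

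Several genes known from cartilage were higher, although defining cartilage genes were at or near 0. Of 11 tested markers 5 were higher and 2 lower (1 to 2 lower with single libraries left out), and Col2a1, Matn1, Matn3 and Snorc were too low to test. Cnmd, chondromodulin, which inhibits vessel growth, stood at 4.85, 3.88 and 5.68 CPM in Empty and 29.5, 18.5 and 24.4 CPM in TSH-MMI, a 5.01-fold rise (log2FC 2.32, SE 0.18, edgeR adjusted p = 3.07e-05). Col11a2, a minor fibrillar chain, stood at 1.21, 0.545 and 0.582 CPM in Empty and 8.57, 3.94 and 6.24 CPM in TSH-MMI (log2FC 2.99, SE 0.40, edgeR adjusted p = 0.00108). Comp, a matrix protein of cartilage and tendon, stood at 1.26, 1.27 and 0.899 CPM in Empty and 3.19, 3.01 and 3.93 CPM in TSH-MMI (log2FC 1.56, SE 0.22, edgeR adjusted p = 6.03e-04). Col9a3 rose by a log2FC of 1.18 (edgeR adjusted p = 1.68e-04) and Col9a1, a partner chain of the same collagen, fell, at 4.00, 3.91 and 2.30 CPM in Empty and 1.11, 1.69 and 0.895 CPM in TSH-MMI (log2FC -1.46, SE 0.30, edgeR adjusted p = 0.006).

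Many endothelial genes were higher. Of 22 tested endothelial genes 14 were higher and 1 lower (0 to 1 lower with single libraries left out), with a median log2FC of 0.38. Eng, endoglin, a coreceptor of proliferating endothelium, stood at 145, 136 and 113 CPM in Empty and 296, 264 and 275 CPM in TSH-MMI, a 2.11-fold rise (log2FC 1.08, SE 0.10, edgeR adjusted p = 5.53e-05). Clec14a, an endothelial surface lectin, stood at 30.6, 38.7 and 26.9 CPM in Empty and 70.3, 57.8 and 78.4 CPM in TSH-MMI (log2FC 1.10, SE 0.14, edgeR adjusted p = 5.20e-04). The endothelial transcription factor Sox17 stood at 2.84, 4.18 and 3.81 CPM in Empty and 9.32, 7.98 and 6.96 CPM in TSH-MMI (log2FC 1.16, SE 0.18, edgeR adjusted p = 0.00106). In these the groups did not overlap. Among angiogenic ligands and receptors 12 of 23 tested were higher and 2 lower (0 to 1 lower with single libraries left out; median log2FC 0.38). Angpt2, which loosens vessels for sprouting, stood at 5.22, 4.85 and 4.12 CPM in Empty and 10.1, 7.78 and 11.8 CPM in TSH-MMI (log2FC 1.06, SE 0.17, edgeR adjusted p = 0.00151). Vegfa, the main vessel growth factor, stood at 226, 241 and 187 CPM in Empty and 276, 313 and 308 CPM in TSH-MMI (log2FC 0.46, SE 0.10, edgeR adjusted p = 0.00753). The apelin receptor Aplnr rose by a log2FC of 0.82 (edgeR adjusted p = 4.41e-04), and Flt4, a receptor of lymphatic vessels, by 0.44 (edgeR adjusted p = 0.00441). Lyve1, a marker of lymphatic endothelium and some macrophages, rose by 0.83 (edgeR adjusted p = 7.20e-04). Prox1, another lymphatic gene, went the other way and was the endothelial list member called lower. The pericyte and smooth muscle list was mixed, with 3 higher and 1 lower of 10 tested and a median log2FC of 0.01. With single libraries left out these were 2 to 3 higher and 0 to 2 lower. Rgs5 and Notch3 rose by log2FC 1.11 and 0.77 (edgeR adjusted p = 2.53e-04 and 5.20e-04), and Myh11 was the member called lower.

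Macrophage genes rose. Of 26 tested genes of macrophages and myeloid cells 20 were higher and 0 lower, with a median log2FC of 0.95. Csf1r, the growth factor receptor of macrophages, stood at 61.9, 70.8 and 53.5 CPM in Empty and 117, 119 and 130.2 CPM in TSH-MMI, a 1.97-fold rise (log2FC 0.97, SE 0.10, edgeR adjusted p = 7.26e-05). Cx3cr1, the fractalkine receptor of resident macrophages, stood at 20.5, 22.9 and 23.2 CPM in Empty and 49.1, 50.1 and 58.5 CPM in TSH-MMI, a 2.37-fold rise (log2FC 1.24, SE 0.10, edgeR adjusted p = 1.82e-05). Trem2, a lipid and debris receptor, stood at 2.19, 2.21 and 2.22 CPM in Empty and 5.99, 5.91 and 7.96 CPM in TSH-MMI, a 3.0-fold rise (log2FC 1.58, SE 0.16, edgeR adjusted p = 8.88e-05). Each was higher in all TSH-MMI libraries. The complement chains C1qa and C1qb, made by macrophages, rose by log2FC 0.76 and 0.98 (edgeR adjusted p = 1.14e-04 and 1.76e-05). S100a8 and S100a9, genes of neutrophils, were too low to test.

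Other immune lists moved less. Interferon response genes gave 2 higher and 0 lower of 34 tested, with a median log2FC of 0.01. The share called was 5.88%, below the 21.6% of all tested genes. The genes called were Oas1a and Irf1, which rose by log2FC 1.05 and 0.52 (edgeR adjusted p = 0.00432 and 0.0129). Of 24 tested MHC genes 6 were higher and 0 lower, a share called of 25% that is near the overall 21.6%. Leaving out 1 library gave a number called higher of 3 without Empty replicate 1. Genes called lower numbered 1 without Empty replicate 1 or TSH-MMI replicate 1. B2m, the invariant chain of class I, stood at 546, 505 and 578 CPM in Empty and 749, 774 and 858 CPM in TSH-MMI (log2FC 0.55, SE 0.10, edgeR adjusted p = 0.0024). No lymphocyte gene was called by edgeR among 21 tested, and 2 of them had an unadjusted p under 0.05. With DESeq2 1 was higher and 2 were lower. With single libraries left out, genes called higher numbered 5 without Empty replicate 3 and 1 without Empty replicate 1 or TSH-MMI replicate 1. Lymphocyte genes were uneven between libraries. Cd3d stood at 0.105, 0.333 and 15.7 CPM in Empty and 0.266, 1.00 and 0.149 CPM in TSH-MMI, high in Empty replicate 3, the library with thymocyte transcripts.

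Chemokine genes moved in both directions. Of 27 tested chemokines and receptors 7 were higher and 3 lower, a share called of 37% against 21.6% of all tested genes. The number called higher was 4 without TSH-MMI replicate 3. Ccl8, a monocyte attractant, stood at 0.263, 0.121 and 0.0529 CPM in Empty and 0.772, 0.821 and 0.920 CPM in TSH-MMI (log2FC 2.49, SE 0.48, edgeR adjusted p = 0.00397). Cxcl13, the B cell attractant, fell, at 61.8, 64.3 and 56.4 CPM in Empty and 31.7, 37.5 and 31.6 CPM in TSH-MMI (log2FC -0.86, SE 0.11, edgeR adjusted p = 5.24e-04), and so did Ccl11, eotaxin, at 8.22, 10.1 and 6.82 CPM in Empty and 3.14, 3.24 and 4.18 CPM in TSH-MMI (log2FC -1.25, SE 0.20, edgeR adjusted p = 0.00133). Complement genes outside C1q gave 7 higher and 1 lower of 17 tested. Leaving out 1 library gave a number called higher of 4 without TSH-MMI replicate 3. C3ar1, the receptor of the C3a peptide, stood at 4.95, 6.42 and 5.61 CPM in Empty and 13.5, 14.2 and 19.1 CPM in TSH-MMI (log2FC 1.46, SE 0.15, edgeR adjusted p = 8.59e-05), and Cd55, which protects cells from complement, at 9.64, 9.87 and 8.62 CPM in Empty and 17.6, 19.1 and 19.9 CPM in TSH-MMI (log2FC 1.01, SE 0.12, edgeR adjusted p = 1.90e-04).

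Lysosomal genes rose broadly and from high levels. Of 35 tested cathepsins and lysosomal genes 28 were higher and 0 lower, with a median log2FC of 0.46. Ctsd, cathepsin D, an aspartic protease that cuts thyroglobulin, stood at 1666, 1485 and 1577 CPM in Empty and 3259, 2728 and 3074 CPM in TSH-MMI (log2FC 0.94, SE 0.12, edgeR adjusted p = 3.77e-04). Ctsl, cathepsin L, stood at 615, 629.6 and 637 CPM in Empty and 1542, 1486 and 1667 CPM in TSH-MMI, a 2.50-fold rise (log2FC 1.32, SE 0.11, edgeR adjusted p = 3.63e-05). Ctsb, cathepsin B, stood at 1099, 1081 and 1052 CPM in Empty and 2222, 1930.5 and 1898 CPM in TSH-MMI (log2FC 0.90, SE 0.13, edgeR adjusted p = 0.00124). Together with Psap, the precursor of the saposins, at 1893, 1841 and 1805 CPM in Empty and 3507, 2880.5 and 3111 CPM in TSH-MMI (log2FC 0.78, SE 0.12, edgeR adjusted p = 0.00155), they were among the 10 largest rises in mean CPM of the comparison. Ctss, a cathepsin of antigen-presenting cells, rose with log2FC 1.25 (edgeR adjusted p = 1.82e-05). Per length Ctsd reached 1527 ± 114 FPKM in TSH-MMI, from 739.9 ± 48.6 in Empty. Macrophages also express these genes, and the macrophage list moved beside them, from 2.69, 2.88 and 2.80 in Empty to 3.46, 3.38 and 3.59 in TSH-MMI as mean log2 CPM. Its part in the rise was not tested.

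Many targets of the oxidative stress factor NRF2 and glutathione enzymes rose, 19 higher and 4 lower of 36 tested (median log2FC 0.33). Genes called higher numbered 10 without TSH-MMI replicate 3, 9 without Empty replicate 1 and 8 without Empty replicate 2. Sod3, the extracellular superoxide dismutase, stood at 171, 139 and 153 CPM in Empty and 888, 580.4 and 754 CPM in TSH-MMI, a 4.80-fold rise (log2FC 2.26, SE 0.23, edgeR adjusted p = 5.94e-04). Gclc, the rate-limiting enzyme of glutathione synthesis, stood at 25.2, 27.8 and 32.0 CPM in Empty and 48.9, 41.9 and 43.4 CPM in TSH-MMI (log2FC 0.66, SE 0.10, edgeR adjusted p = 9.31e-04). Prdx1, a peroxidase, stood at 378, 368 and 372 CPM in Empty and 568, 488 and 554 CPM in TSH-MMI (log2FC 0.53, SE 0.08, edgeR adjusted p = 0.00127). Members that fell included Prdx6, a peroxidase with phospholipase activity, at 176, 168 and 169 CPM in Empty and 121, 126 and 114 CPM in TSH-MMI (log2FC -0.51, SE 0.07, edgeR adjusted p = 4.77e-04), and Gsta4, a transferase for lipid aldehydes, with log2FC -0.84 (edgeR adjusted p = 2.37e-04).

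Few chaperones of the endoplasmic reticulum were called. Of 34 tested genes of chaperones and the unfolded protein response 2 were higher and 3 lower (1 to 3 higher and 2 to 3 lower with single libraries left out), with a median log2FC of 0.09. The call rate was below the 21.6% of all tested genes. Spcs2, a signal peptidase subunit, fell, at 160.1, 144 and 149 CPM in Empty and 119, 118 and 113 CPM in TSH-MMI (log2FC -0.37, SE 0.06, edgeR adjusted p = 0.00147). Targets of ATF4, the factor of the integrated stress response, gave 2 higher and 4 lower of 30 tested (1 to 3 higher and 1 to 4 lower with single libraries left out). Their share called was 20%, near the 21.6% of all tested genes. Ddit4, an inhibitor of the growth kinase mTOR, stood at 18.4, 20.9 and 22.2 CPM in Empty and 39.2, 28.9 and 35.8 CPM in TSH-MMI (log2FC 0.76, SE 0.16, edgeR adjusted p = 0.00985).

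Cytosolic ribosomal protein genes fell nearly as a block, by a small amount each. Of 36 tested 0 were higher and 33 lower, against 7.97% called lower over all tested genes, with a median log2FC of -0.36. Rps19 stood at 319.9, 275 and 254 CPM in Empty and 181, 175 and 173 CPM in TSH-MMI (log2FC -0.68, SE 0.08, edgeR adjusted p = 2.53e-04). Rpl13 stood at 390.1, 343 and 354 CPM in Empty and 258, 266 and 252 CPM in TSH-MMI (log2FC -0.49, SE 0.06, edgeR adjusted p = 4.15e-04). Rpl8 stood at 498, 435 and 441 CPM in Empty and 359, 323 and 305 CPM in TSH-MMI (log2FC -0.48, SE 0.08, edgeR adjusted p = 0.00144). In 35 of the 36 genes all TSH-MMI libraries lay below all Empty libraries. The direction held under each scaling tried, with a median log2FC from -0.42 to -0.24 and 24 to 36 genes called lower over the other settings. Many of these genes have processed pseudogenes with near-identical sequence, which makes their counts uncertain. Genes that build ribosomes gave 6 lower and 0 higher of 20 tested (median log2FC -0.23). With single libraries left out, genes called lower numbered 3 without Empty replicate 1 or TSH-MMI replicate 1 and 2 without Empty replicate 3 or TSH-MMI replicate 3.

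Lipid synthesis genes changed in both directions. Of 32 tested genes of sterol and fatty acid synthesis 7 were higher and 6 lower. The share called was 40.6%, against 21.6% of all tested genes. The number called higher was 4 without Empty replicate 3, 3 without Empty replicate 2, 2 without TSH-MMI replicate 3 and 1 without Empty replicate 1 or TSH-MMI replicate 1. The lower members included genes of fatty acid and of sterol synthesis. Acly, which supplies acetyl-CoA in the cytosol, stood at 419.8, 509.8 and 412 CPM in Empty and 332, 287 and 266 CPM in TSH-MMI (log2FC -0.60, SE 0.10, edgeR adjusted p = 0.00159). Acaca, acetyl-CoA carboxylase, stood at 333, 351 and 304 CPM in Empty and 220.2, 178 and 149 CPM in TSH-MMI (log2FC -0.85, SE 0.13, edgeR adjusted p = 0.00183). Srebf1, a transcription factor of lipid synthesis, stood at 187, 163 and 156 CPM in Empty and 123, 129.8 and 118 CPM in TSH-MMI (log2FC -0.45, SE 0.08, edgeR adjusted p = 0.00223). Each TSH-MMI library was below each Empty library in these. Fasn, fatty acid synthase, stood at 1193, 1185 and 1074 CPM in Empty and 761, 470.3 and 369.6 CPM in TSH-MMI (log2FC -1.11, SE 0.26, edgeR adjusted p = 0.0216), one of the 10 largest falls in mean CPM, a call that ended without Empty replicates 1 or 2 or TSH-MMI replicate 2 (edgeR adjusted p = 0.0661, 0.0588 and 0.0678), with only the compared groups (0.059) and without both libraries with thymocyte transcripts (0.116). Of the members called higher, Stard4, Insig2, Pmvk, Msmo1 and Sc5d each lost the call in at least 2 of the fits that left out 1 library, and belong to sterol synthesis and transport or its control. Adipocyte markers, counted because fat also makes fatty acids, stood at 5.43, 5.44 and 5.65 in Empty and 5.67, 4.92 and 4.91 in TSH-MMI as mean log2 CPM, and their part in the fall was not tested.

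Lists of energy metabolism, rhythm and junctions are given beside the 21.6% of all tested genes that were called. Respiratory chain genes gave 4 higher and 5 lower of 41 tested (1 to 4 and 0 to 6 with single libraries left out). Genes of glucose uptake, glycolysis and hypoxia gave 3 and 3 of 29, with Pfkl, a phosphofructokinase, at log2FC -0.35 (edgeR adjusted p = 0.00637). Clock genes gave 0 and 4 of 19 (2 to 5 lower with single libraries left out). Tight junction genes gave 2 and 4 of 19 (0 to 2 and 2 to 5 with single libraries left out). Cgn, cingulin, a scaffold of the tight junction, stood at 149.8, 130.5 and 119 CPM in Empty and 90.1, 101 and 84.9 CPM in TSH-MMI (log2FC -0.54, SE 0.09, edgeR adjusted p = 0.00155), and Cldn6, a claudin of embryonic epithelia, fell by 0.75 on the log2 scale (edgeR adjusted p = 0.00423).

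Among transporters of phosphate, bicarbonate and protons 8 of 20 tested were higher and 1 lower. Leaving out 1 library gave a number called higher of 5 without Empty replicate 1. Slc34a2, a sodium phosphate cotransporter, rose from near silence, at 0.395, 0.454 and 1.22 CPM in Empty and 38.4, 13.5 and 13.5 CPM in TSH-MMI, a 31.2-fold rise (log2FC 4.96, SE 0.81, edgeR adjusted p = 0.00785). TSH-MMI replicate 1 was the highest and no library overlapped. Slc20a1, a phosphate transporter of another family, stood at 19.6, 17.0 and 20.7 CPM in Empty and 45.7, 33.1 and 41.9 CPM in TSH-MMI (log2FC 1.07, SE 0.15, edgeR adjusted p = 9.89e-04), while its relative Slc20a2 fell, at 87.7, 75.4 and 84.1 CPM in Empty and 57.5, 52.2 and 54.0 CPM in TSH-MMI (log2FC -0.59, SE 0.07, edgeR adjusted p = 3.21e-04). Car15, a membrane-anchored carbonic anhydrase, stood at 0.711, 0.818 and 0.582 CPM in Empty and 6.76, 11.4 and 42.1 CPM in TSH-MMI, a 28.5-fold rise (log2FC 4.83, SE 0.89, edgeR adjusted p = 0.0116). TSH-MMI replicate 3 was far above the others, and the call ended without Empty replicate 1 (edgeR adjusted p = 0.0531) and without both libraries with thymocyte transcripts (0.0646). Car4, Car2 and Car13 rose by log2FC 0.79, 0.61 and 0.71 (edgeR adjusted p = 5.57e-04, 0.00138 and 2.68e-04).

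Among called genes with a mean of at least 5 CPM over the 6 libraries and no overlap, predicted and antigen receptor genes left out, the largest fold was that of Dcpp3, a demilune cell and parotid secretory gene, at 0.184, 0.303 and 0 CPM in Empty and 10.6, 13.9 and 7.98 CPM in TSH-MMI (log2FC 6.08, SE 0.56, edgeR adjusted p = 2.51e-04). Its near-identical relatives Dcpp1 and Dcpp2 stood at 0, 0.151 and 0 CPM in Empty and 4.34, 5.68 and 4.15 CPM in TSH-MMI (log2FC 6.58) and at 0, 0.363 and 0 CPM in Empty and 2.22, 2.37 and 1.49 CPM in TSH-MMI (log2FC 4.12), and reads may be split between the 3 copies. Bcat1, which starts the breakdown of branched-chain amino acids, stood at 2.19, 1.45 and 2.70 CPM in Empty and 29.8, 14.9 and 21.6 CPM in TSH-MMI, a 10.4-fold rise (log2FC 3.38, SE 0.34, edgeR adjusted p = 5.27e-04). These genes were low in every Empty library and higher in every TSH-MMI library. Ccn5, a secreted matricellular protein, stood at 1.84, 0.757 and 1.19 CPM in Empty and 13.8, 9.42 and 16.5 CPM in TSH-MMI, a 10.4-fold rise (log2FC 3.38, SE 0.30, edgeR adjusted p = 1.14e-04). Adm2, a vasodilator peptide of the calcitonin family, stood at 11.2, 11.4 and 6.93 CPM in Empty and 68.5, 74.9 and 76.5 CPM in TSH-MMI, a 7.47-fold rise (log2FC 2.90, SE 0.36, edgeR adjusted p = 0.0022). Upk3bl, a uroplakin-like gene, stood at 6.03, 5.33 and 8.57 CPM in Empty and 76.3, 35.5 and 51.5 CPM in TSH-MMI (log2FC 3.03, SE 0.39, edgeR adjusted p = 0.00264). The smallest adjusted p of the comparison was that of Cst6, a cystatin that inhibits cysteine proteases, named here after its value was seen. It stood at 13.4, 11.5 and 13.4 CPM in Empty and 91.4, 88.9 and 98.9 CPM in TSH-MMI, a 7.29-fold rise (log2FC 2.87, SE 0.10, edgeR adjusted p = 5.67e-08). The groups did not overlap in any of these genes. The spindle genes Knstrn and Ckap2, not members of the mitosis list, rose by log2FC 2.93 and 2.92 (edgeR adjusted p = 2.46e-04 and 1.12e-04).

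Among the largest falls, Inmt, a methyltransferase, stood at 13.3, 22.0 and 11.7 CPM in Empty and 3.84, 3.76 and 3.71 CPM in TSH-MMI, a 4.15-fold fall (log2FC -2.05, SE 0.29, edgeR adjusted p = 0.00138). Ptgds, the lipocalin-type prostaglandin D synthase, stood at 10.3, 13.5 and 11.4 CPM in Empty and 3.93, 3.15 and 3.23 CPM in TSH-MMI, a 3.41-fold fall (log2FC -1.77, SE 0.18, edgeR adjusted p = 9.55e-05). Hpgds, the other prostaglandin D synthase, known from mast cells and macrophages, moved the opposite way, at 4.37, 6.06 and 4.97 CPM in Empty and 10.8, 14.4 and 13 CPM in TSH-MMI (log2FC 1.31, SE 0.15, edgeR adjusted p = 2.26e-04). The 2 synthases thus moved apart, each without overlap between the groups. In the prostaglandin list 4 of 15 tested were higher and 2 lower, a share called of 40% against 21.6% of all tested genes. Lgi3, a secreted leucine-rich protein, stood at 27.7, 26.1 and 20.2 CPM in Empty and 6.47, 7.80 and 8.61 CPM in TSH-MMI (log2FC -1.69, SE 0.21, edgeR adjusted p = 4.77e-04), and Tacr1, the substance P receptor, at 56.2, 48.2 and 40.9 CPM in Empty and 14.8, 21.1 and 18.3 CPM in TSH-MMI (log2FC -1.42, SE 0.18, edgeR adjusted p = 8.08e-04). By mean CPM the largest falls beside Tg and Fasn included Gsn, the actin-severing gelsolin, at 821, 1067 and 816 CPM in Empty and 473, 434 and 411 CPM in TSH-MMI (log2FC -1.04, SE 0.16, edgeR adjusted p = 0.00232). Ager, the receptor for advanced glycation products, stood at 1231, 1163 and 1079.5 CPM in Empty and 645, 843 and 702 CPM in TSH-MMI (log2FC -0.67, SE 0.10, edgeR adjusted p = 7.20e-04). Every Empty library exceeded every TSH-MMI library in these genes. Other large rises in mean CPM were those of Bcam, a laminin receptor, at 2118, 1936 and 1989 CPM in Empty and 3189, 2624 and 2747 CPM in TSH-MMI (log2FC 0.50, SE 0.12, edgeR adjusted p = 0.011), and Cd24a, a surface glycoprotein, at 1887, 1917 and 1748 CPM in Empty and 2661, 2836 and 2812 CPM in TSH-MMI (log2FC 0.58, SE 0.07, edgeR adjusted p = 2.28e-04).

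Several genes of C cells fell, and parathyroid genes were lower without passing the test. C cells, which make calcitonin, lie between the follicles. Of 14 tested C cell markers 2 were higher and 6 lower, with a median log2FC of -0.53. Over all tested genes 7.97% were called lower. The number of C cell markers called lower was 4 without Empty replicate 1 or any 1 of the TSH-MMI replicates, and 9 with DESeq2. The prohormone convertase Pcsk2 stood at 159, 165 and 136 CPM in Empty and 86.1, 87.6 and 112 CPM in TSH-MMI (log2FC -0.69, SE 0.15, edgeR adjusted p = 0.0121). Scg3, a granule protein, stood at 79.4, 69.1 and 57.7 CPM in Empty and 44.0, 46.4 and 52.0 CPM in TSH-MMI (log2FC -0.53, SE 0.12, edgeR adjusted p = 0.011). Calca, the calcitonin gene and the defining marker, stood at 495, 463 and 445 CPM in Empty and 361, 369.7 and 507 CPM in TSH-MMI and did not pass (log2FC -0.18, SE 0.20, edgeR adjusted p = 0.579). Its groups overlapped, with TSH-MMI replicate 3 the highest of all libraries. Chga, a granule protein shared with parathyroid cells, stood at 9476, 3728 and 7871 CPM in Empty and 2395, 952 and 739 CPM in TSH-MMI, a difference without overlap that did not pass (log2FC -2.37, SE 0.90, edgeR adjusted p = 0.117). The members that rose were Scg5, a chaperone of Pcsk2, at 131, 129 and 108 CPM in Empty and 288, 309 and 319.7 CPM in TSH-MMI, a 2.49-fold rise (log2FC 1.32, SE 0.09, edgeR adjusted p = 7.39e-06), and Ret, a receptor kinase, with log2FC 0.62 (edgeR adjusted p = 1.74e-04). In the parathyroid list the Empty libraries were uneven. Pth, parathyroid hormone, stood at 3388, 1916 and 2463 CPM in Empty and 1496, 417 and 715 CPM in TSH-MMI (log2FC -1.56, SE 0.53, edgeR adjusted p = 0.086). Its receptor of calcium, Casr, stood at 244, 136 and 222 CPM in Empty and 89.6, 44.9 and 50.9 CPM in TSH-MMI (log2FC -1.70, SE 0.48, edgeR adjusted p = 0.0527). Neither passed, and edgeR called 0 of 5 parathyroid markers, of which 4 had an unadjusted p under 0.05 and 4 had no overlap. With DESeq2 4 were lower, and with limma 1. Whether parathyroid transcripts have a part in the values of granule genes such as Pcsk2 and Scg3 was not tested.

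Few genes were called between TSH-MMI and TSH, the direct test of the added drug. In TSH-MMI against TSH 3 of 16956 tested genes were called by edgeR (0.0177%), all lower in TSH-MMI, and 1462 had an unadjusted p under 0.05. With DESeq2 the calls were 38 higher and 101 lower, and with limma on log2(FPKM + 1) there were 0. Col15a1, a collagen of vessel and muscle basement membranes, stood at 134, 122 and 123 CPM in TSH-MMI and 200.2, 179 and 191 CPM in TSH (log2FC -0.59, SE 0.07, edgeR adjusted p = 0.04). Col6a1, a microfibrillar collagen, stood at 178, 154 and 166 and 250.2, 239 and 242 CPM (log2FC -0.55, SE 0.07, edgeR adjusted p = 0.0422). Tbc1d4, which holds glucose transporters inside the cell, stood at 52.5, 60.0 and 55.9 and 79.2, 80.3 and 79.7 CPM (log2FC -0.51, SE 0.06, edgeR adjusted p = 0.04). The TSH libraries lay above the TSH-MMI libraries in all 3. Skeletal muscle markers stood at 4.59, 2.14 and 1.69 in TSH-MMI and 4.70, 2.71 and 6.87 in TSH as mean log2 CPM, and the groups overlapped. With that score as a covariate the log2FC of Col15a1, Col6a1 and Tbc1d4 were -0.58, -0.56 and -0.51, and none passed (edgeR adjusted p = 0.124 for each). Against Empty, Col6a1 rose (log2FC 0.59, SE 0.07, edgeR adjusted p = 3.20e-04), Tbc1d4 did not pass (log2FC 0.14, SE 0.06, edgeR adjusted p = 0.139) and Col15a1 was called higher (log2FC 0.27, SE 0.07, edgeR adjusted p = 0.0165), a call that ended without Empty replicate 3 or TSH-MMI replicates 1 or 3 (edgeR adjusted p = 0.0578, 0.0696 and 0.0504) and without both libraries with thymocyte transcripts (0.0606). Between TSH-MMI and TSH edgeR called 0 genes with the skeletal muscle score as a covariate, with the replicate block, without both libraries with thymocyte transcripts, without TSH replicate 2 or 3, and without any 1 of the TSH-MMI replicates.

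Genes that moved against Empty are set beside their TSH values, and none of those given here passed between TSH-MMI and TSH. The mitosis list had a median log2FC of -0.47 in TSH-MMI against TSH with 0 of 40 members called, and the synthesis list one of 0.02 with 0 of 18 called. Iqgap3 stood at 29.3, 39.4 and 36.4 CPM in TSH, above its TSH-MMI values (log2FC -0.64, SE 0.15, edgeR adjusted p = 0.261). Lox stood at 48.2, 57.2 and 56.7 CPM in TSH (log2FC -0.06, SE 0.10, edgeR adjusted p = 0.916). Slc26a4 stood at 4.38, 5.02 and 5.83 CPM in TSH, above its TSH-MMI values (log2FC -0.78, SE 0.23, edgeR adjusted p = 0.356). Duox1 went the other way, at 4.85, 4.59 and 4.90 CPM in TSH, all below its TSH-MMI values (log2FC 0.61, SE 0.21, edgeR adjusted p = 0.436). Atf3 stood at 6.16, 6.06 and 6.48 CPM in TSH, all above its TSH-MMI values (log2FC -0.88, SE 0.18, edgeR adjusted p = 0.191). Upk3bl stood at 18.6, 32.7 and 19.0 CPM in TSH, below its TSH-MMI values (log2FC 1.22, SE 0.36, edgeR adjusted p = 0.423). A p that misses the threshold does not show that these levels are alike.

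**Figure D5:**
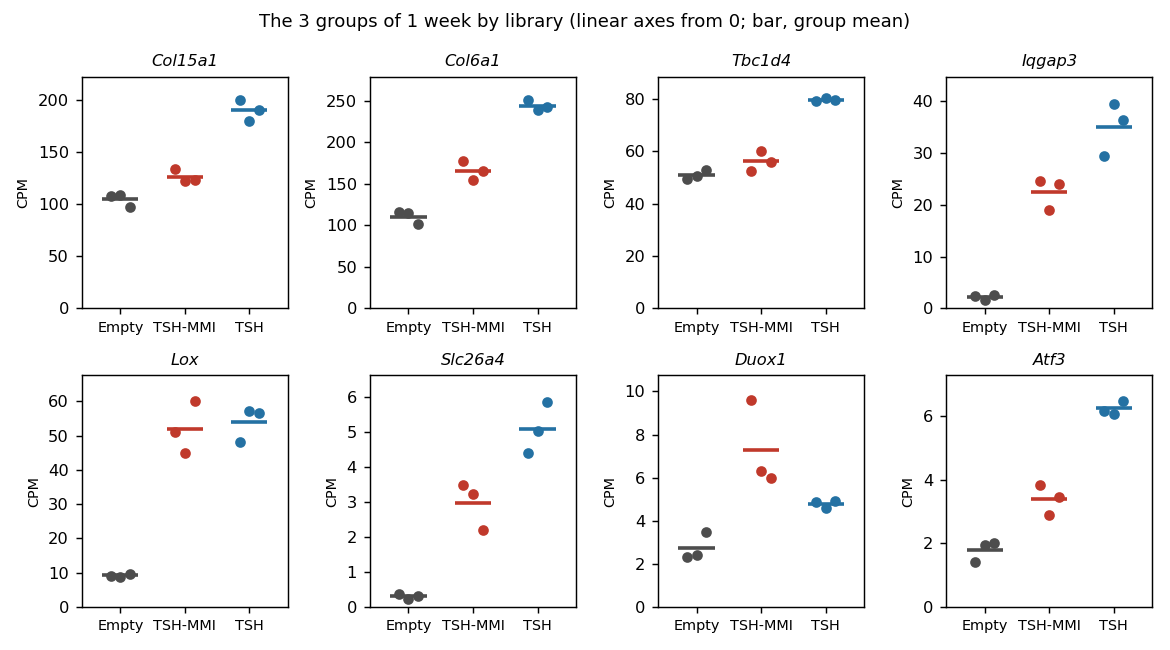
CPM of 8 genes in each library of 1 week, Empty in grey, TSH-MMI in red and TSH in blue, with a bar at each group mean. Col15a1, Col6a1 and Tbc1d4 are the 3 genes called between TSH-MMI and TSH, and in the other 5 genes that difference did not pass.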

How the data were processed

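Poly(A) RNA sequencing of mouse thyroid glands was analysed for 9 libraries of 1 week. The authors deposited, per the file headers, read counts, FPKM and TPM per gene and library in a single table. StringTie 2.1.3b, HISAT2 2.1.0, Trimmomatic 0.38, FastQC 0.11.7 and the mm10 build appear in the submitters' processing notes, with no roles. How reads were counted, and with which strand setting, is not given in those notes. Deposited TPM values were not tested, and deposited FPKM gave levels compared between genes.

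Counts were scaled by TMM, filtered with filterByExpr and fitted with edgeR 4.0.16 (quasi-likelihood, R 4.3.3) over Empty, TSH-MMI and TSH. Benjamini-Hochberg adjustment ran over all 16956 tested genes, with a threshold of 0.05. DESeq2 1.42.0, limma 3.58.1 on log2(FPKM + 1), other scalings, no filter, covariates and left-out libraries were alternatives. Scripts were tested on simulated data. Replicate pairs differed beyond sampling noise (chi-square per degree of freedom 11.1 to 40.1), so no library was counted as a repeat. The 6 compared libraries of 33962440 to 42393992 counts limit precision at low levels.

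The 48 gene lists and the members were chosen with earlier results of these data known. Genes named were the thyroid lists, the 15 highest and 15 lowest fold changes at a mean of at least 5 CPM without overlap, the 10 largest rises and 10 largest falls in CPM, up to 6 members of a list by p with further members given by value, and all genes called between TSH-MMI and TSH. Not every gene meeting these rules is printed, and a few thyroid genes were left out. Promoter windows come from RefSeq (GRCm38.p6).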

Additional observations from a re-analysis of the deposited data

How the results depend on the processing

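Against Empty, edgeR called 3658 genes, and 2094 to 3488 with each of the 6 libraries left out, the lowest numbers being 2094 without TSH-MMI replicate 3 and 2358 without Empty replicate 1. The other settings called 3107 to 4265 genes. The share of calls that were higher was 63.1%, and 81.5% with limma on log2(FPKM + 1), the one setting that moved the split by over 10 percentage points. Against TSH, the 3 calls became 139 with DESeq2, 5 with no filter on low counts, and 0 with limma, with the replicate block, with the skeletal muscle score as covariate and without both libraries with thymocyte transcripts, and 0 to 4 with each library left out. The cause was not tested. Lox, uncalled against TSH, changed sign as well (0.0013 with limma, 0.0396 without both libraries with thymocyte transcripts, and -0.165 to 0.0451 with each library left out). Col15a1, Col6a1 and Tbc1d4 each lost the call in 10 or 11 of 15 settings, with adjusted p up to 0.331. Of 172 called genes named in the text, 149 kept the call at every setting in which they were tested (14 for Tg, which 1 setting removed, and 15 for the others), 23 lost it at 1 or more, and 0 reversed. Uncalled genes that changed sign were Cd3d (-4.68 to 1.12 on the log2 scale with each library left out), Duox2 (0.0534 with limma, -0.144 to 0.00871 with libraries left out), Hhex (0.0843 with limma, -0.183 to 0.085), Iyd (-0.041 without both libraries with thymocyte transcripts, -0.0171 to 0.0647) and Slco4c1 (-0.262 and -0.0618 to 0.382 likewise). Libraries with the same replicate number did not deviate together (correlations of -0.246, -0.029 and -0.144 across genes). For unlike numbers the correlations were -0.0634 to 0.207. With 3 libraries per group these values cannot show whether the numbers stand for a shared batch. With the replicate block edgeR called 3382 genes against Empty. Low genes such as Slc26a4, Dcpp3 and Dio3 rest on few counts per library, and low levels limit their precision.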
